A study of Mus musculus with 6 samples.

Results

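Genes of cholesterol synthesis and sterol handling were compared between female and male mouse sciatic nerves after injury. The set held 29 genes, taken by symbol from a named list, out of 52999 symbols in the transcript tables, and the counts of all transcripts of a symbol were added together. It comprised 19 enzymes of synthesis, from Acat2 at the entry of the mevalonate pathway to Dhcr7 near its end, and 10 other genes: 5 regulators of the SREBP transcription factors (sterol regulatory element binding proteins), 4 genes of sterol transport and storage, and the oxysterol enzyme Ch25h. The left sciatic nerve of C57BL/6 mice aged 6 to 8 weeks was cut at mid-thigh (axotomy), and the stump that remains joined to the dorsal root ganglia was taken 24 h later. There were 3 female and 3 male libraries of polyadenylated RNA, each made from nerves of 2 pooled mice, so all 6 libraries came from cut nerves and the difference between sexes was the one comparison possible. P-values measure the spread between these pools. Because the nerve was sequenced whole, fewer cells of a type and less RNA per cell cannot be told apart.

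Cholesterol is built from acetyl-CoA in 3 stretches: the mevalonate pathway, which ends in farnesyl diphosphate, the joining and folding of squalene into lanosterol, and a series of reductions and demethylations that trim lanosterol to cholesterol. When sterols are scarce, Scap escorts the SREBP proteins from the endoplasmic reticulum to the Golgi, where they are cut and released to activate the genes of the pathway, while the Insig proteins hold them back when sterols are plentiful. In peripheral nerve the pathway is best known for supplying the membrane of myelin, which Schwann cells wrap around axons and which is rich in cholesterol. Sterol from degraded membranes is exported from lysosomes through Npc1 and Npc2 or stored as esters made by Soat1.

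The libraries held 49158283 to 69848769 estimated counts. All 29 genes passed the filter on low counts, and 18396 symbols were tested in all. CPM below is the count of a gene relative to the normalised size of its library, and a log2 fold change is male minus female ± SE. A gene was called where the quasi-likelihood test of edgeR gave an adjusted p under 0.1, with Benjamini-Hochberg adjustment over all genes tested. Libraries of 1 sex did not all lie together. On the first principal component of log2 CPM (43.8% of variance) female 3 lay at -7.55, females 1 and 2 at -61.5 and -46.0 and the males at 35.9 to 42.0. On the second (24.0%) male 3 lay at -51.2, males 1 and 2 at 17.3 and 13.1, and females 1, 2 and 3 at 1.48, -25.0 and 44.4. Female 3 held 139 counts of the Y-linked Ddx3y and 147 of Eif2s3y, both at 0 in the other females. The Y-linked Kdm5d had 43, 51 and 83 counts in females 1, 2 and 3, and male 1 held 193 counts of Xist against 6 and 16 in the other males. Calls without female 3 are given below.

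Most of the 29 genes were higher in males, but by small amounts, and few passed the test. The log2 fold change was above 0 for 24 of 29 genes, against 46.7% of all genes tested, and its median was 0.26, against -0.03 for all genes. The sterol reductase gene Tm7sf2 and the lathosterol desaturase gene Sc5d were called higher in males, and 0 of 29 were called higher in females, where the unadjusted p was also under 0.05 for 0 genes and where DESeq2 and limma-voom likewise called 0. Among all genes tested 5.30% were called, 3.84% higher in males and 1.46% higher in females. At an unadjusted p under 0.05, 14 of the 29 genes were higher in males, against 11.0% of all genes in that direction and 9.69% in the other. This count was 6 without female 1, 6 without male 1 and 5 without male 3. The CPM of the 3 males lay above that of the 3 females for 14 of 29 genes, against 13.9% of all genes, and the reverse held for Lbr alone, against 11.6% of all genes. The enzymes leaned further than the other genes, with 17 of 19 above 0 and a median of 0.32, against 7 of 10 and a median of 0.19. This contrast of the groups was not tested.

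**Figure D1:**
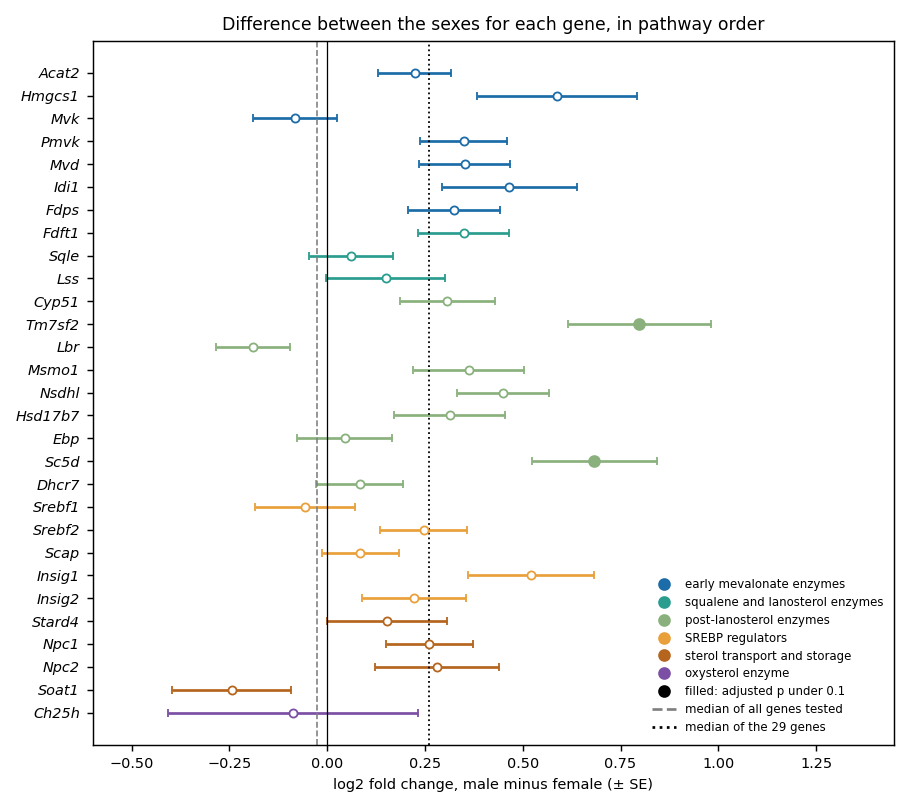
Log2 fold change (male minus female, points, with SE as bars) of each of the 29 genes, in pathway order and coloured by role; filled points passed an adjusted p under 0.1. The 2 filled points are Tm7sf2 (0.80) and Sc5d (0.68), 24 points lie right of 0, and the dotted line at 0.26 (median of the 29) lies right of the dashed line at -0.03 (median of all genes tested).

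The calls depended on single libraries. Both were lost without female 1, female 2, male 1 or male 3, where 0 of 29 genes passed, and both held without male 2 or female 3. Calls over all genes tested also fell, to 0.0053% without female 1, 1.71% without female 2, 3.38% without male 1 and 0.037% without male 3. Without male 2 they were 4.02%. The log2 fold changes ran from 0.54 to 0.81 for Sc5d and from 0.69 to 0.98 for Tm7sf2 over these 6 fits. Tm7sf2 also missed the threshold when scaled by library size alone (adjusted p = 0.106). Without female 3, 4 of 29 genes passed, Sc5d, Tm7sf2, the sterol dehydrogenase gene Nsdhl (adjusted p = 0.0990) and the phosphomevalonate kinase gene Pmvk (adjusted p = 0.0554). In that fit 13.7% of all genes tested were called, against 5.30% with all 6 libraries. The direction was steadier than the calls: the median of the 29 genes stayed between 0.21 and 0.32 over all alternatives.

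Promoter sequence was looked at for motifs through which these genes are commonly discussed. RefSeq windows of 300 bases, 250 before and 50 after an annotated start on assembly GRCm38.p6, matched 24 of the 29 genes, and Npc1, Fdft1, Sqle, Stard4 and Fdps had no entry. The letters TCACNCCAC, the core of a classical sterol response element to which SREBP binds, occurred on either strand in 1 of 24 genes, Hmgcs1, and in 1.38% of 12939 tested genes with a window. The letters CCAAT, read by the trimeric factor NF-Y, occurred in 21 of 24 genes (87.5%), against 42.5% of those tested genes. The GC box GGGCGG, a site of Sp-family factors, occurred in 22 of 24 genes (91.7%), against 62.8%, and the palindromic E-box CACGTG in 5 of 24 (20.8%), against 10.9%. A match is a match of letters and was not tested for binding. The 250 bases before the start are printed for 4 genes, the enzyme gene with the highest level (Hmgcs1), both called genes and Ch25h, the 1 oxysterol enzyme of the set. They read 5′ to 3′ along each gene's own strand, and capitals mark CCAAT or its reverse complement ATTGG and the sterol response element core.
Hmgcs1, chr13:119690101-119690350, plus strand: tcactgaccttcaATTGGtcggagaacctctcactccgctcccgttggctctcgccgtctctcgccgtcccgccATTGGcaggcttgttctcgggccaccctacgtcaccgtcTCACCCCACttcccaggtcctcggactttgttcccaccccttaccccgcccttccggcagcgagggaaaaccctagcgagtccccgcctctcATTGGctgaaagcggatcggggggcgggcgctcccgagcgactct
Sc5d, chr9:42264301-42264550, minus strand: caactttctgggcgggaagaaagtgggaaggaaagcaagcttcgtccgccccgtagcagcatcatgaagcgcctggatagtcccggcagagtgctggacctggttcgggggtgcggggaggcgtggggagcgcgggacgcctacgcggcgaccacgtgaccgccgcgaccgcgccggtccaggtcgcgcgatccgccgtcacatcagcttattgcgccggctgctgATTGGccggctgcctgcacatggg
Tm7sf2, chr19:6067851-6068100, minus strand: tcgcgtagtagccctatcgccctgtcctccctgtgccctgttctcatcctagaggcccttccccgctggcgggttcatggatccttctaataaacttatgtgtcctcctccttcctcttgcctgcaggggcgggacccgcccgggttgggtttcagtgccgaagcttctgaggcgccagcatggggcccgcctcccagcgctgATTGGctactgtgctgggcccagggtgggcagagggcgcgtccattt
Ch25h, chr19:34475149-34475398, minus strand: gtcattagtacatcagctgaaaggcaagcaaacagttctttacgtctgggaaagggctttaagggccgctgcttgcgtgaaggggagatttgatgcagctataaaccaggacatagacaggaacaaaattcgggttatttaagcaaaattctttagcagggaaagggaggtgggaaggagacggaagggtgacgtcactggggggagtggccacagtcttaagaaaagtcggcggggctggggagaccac
Hmgcs1 carried the response element core with its first base at -137 from the start, between CCAAT matches at -176 and -45. Sc5d and Tm7sf2 each held a single CCAAT match, at -24 and -47, both on the reverse strand. Ch25h held none of the 4 motifs in its window, which says only that these letters are absent there.

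In the mevalonate stretch, 6 of 7 genes had a log2 fold change above 0 (median 0.35) and 0 of 7 passed the edgeR test. An unadjusted p under 0.05 was found for 6, all higher in males, against 11.0% of all genes in that direction. DESeq2 called Hmgcs1 and Mvd. Over all genes tested DESeq2 called 13.3%, against 5.30% by edgeR, a background that holds for its calls named below as well. The other tool run, limma-voom, called Sc5d and Tm7sf2 alone of the whole set. Pmvk, which adds the second phosphate to mevalonate, had the smallest p of the stretch. It stood at 34.996, 36.2 and 43.4 CPM in females 1, 2 and 3 and at 50.2, 45.8 and 49.9 CPM in males 1, 2 and 3. Every male lay above every female, and the log2 fold change was 0.35 ± 0.11 (adjusted p = 0.143). Hmgcs1, the cytosolic synthase that makes HMG-CoA, was the most abundant of all 29 genes and varied more. Its CPM was 296, 474 and 390 in the females and 645, 470 and 628 in the males. Male 2 lay just below female 2, so the sexes overlapped, although the fold between the means was 1.50 (log2 fold change 0.59 ± 0.21, adjusted p = 0.169). The remaining genes of the stretch were the thiolase Acat2 (0.22), the decarboxylase Mvd (0.35), the isomerase Idi1 (0.47) and the farnesyl diphosphate synthase Fdps (0.32), all without overlap and male higher, and the mevalonate kinase Mvk (-0.08), which overlapped and turned positive with a correction for transcript length.

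In the stretch from squalene to lanosterol 3 of 3 genes were above 0 (median 0.15) and 0 of 3 passed the test, with 1 at an unadjusted p under 0.05 and Fdft1 called by DESeq2. Fdft1, the squalene synthase that commits farnesyl diphosphate to sterols, stood at 82.2, 98.5 and 98.5 CPM in the females and 119, 108 and 128 CPM in the males. All males were above all females (log2 fold change 0.35 ± 0.12, adjusted p = 0.157). Sqle, the squalene epoxidase, had 93.2, 110 and 100 CPM in the females and 114, 98.2 and 105 CPM in the males. The sexes were interleaved, and the log2 fold change was 0.06 ± 0.11 (adjusted p = 0.780). Lss, which folds the epoxide into lanosterol, overlapped as well (0.15 ± 0.15) and turned negative with the length correction.

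Both called genes lay in the stretch after lanosterol, where 8 of 9 genes were above 0 (median 0.31). Sc5d (ENSMUSG00000032018.15, chr9:42162891-42175605 on GRCm39, minus strand) encodes the desaturase that places a double bond in the sterol ring near the end of the pathway. It had 85.6, 123 and 116 CPM in the females and 182, 152 and 188 CPM in the males. The lowest male exceeded the highest female, and the fold between the means was 1.61 (log2 fold change 0.68 ± 0.16, adjusted p = 0.0816). Tm7sf2 (ENSMUSG00000024799.17, chr19:6112851-6118403 on GRCm39, minus strand) encodes a reductase of the endoplasmic reticulum that acts on the intermediate left by Cyp51. Its counts were low, at 10.4, 11.2 and 8.41 CPM in the females and 19.5, 13.6 and 19.0 CPM in the males. Here too the sexes did not overlap, with male 2 the lowest male and a fold of 1.74 (log2 fold change 0.80 ± 0.18, adjusted p = 0.0779). Lbr, a nuclear envelope protein with the same reductase activity, is given as well, chosen after its values were seen. It stood at 69.5, 64.4 and 66.7 CPM in the females and 61.3, 61.4 and 53.3 CPM in the males. It was the 1 gene of the set with every female above every male, and it was not called (log2 fold change -0.19 ± 0.09, adjusted p = 0.301).

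Msmo1, a methylsterol oxidase and the most abundant enzyme after lanosterol, stood at 93.6, 128 and 120 CPM in the females and 144, 133 and 162 CPM in the males. The lowest male, male 2, was just above the highest female, female 2 (log2 fold change 0.36 ± 0.14, adjusted p = 0.209). Nsdhl, a dehydrogenase that acts with Msmo1, missed the threshold narrowly and is also given after its values were seen. It had 31.1, 32.2 and 26.0 CPM in the females and 40.3, 37.7 and 43.9 CPM in the males. The sexes were apart (log2 fold change 0.45 ± 0.12, adjusted p = 0.102), and the gene was called by DESeq2, with DESeq2 size factors in edgeR, with no filter and with a filter of 50 counts in 3 libraries. Of the other genes, the lanosterol demethylase Cyp51 (0.31) did not overlap, while the ketosteroid reductase Hsd17b7 (0.31), the isomerase Ebp (0.05) and the final reductase Dhcr7 (0.08) did. Ebp turned negative under library size alone, with the length correction, and without female 2 or male 1.

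Of the regulators, 4 of 5 were above 0 (median 0.22) and 0 of 5 passed, with 1 at an unadjusted p under 0.05 and Insig1 called by DESeq2. Insig1, itself a target of SREBP and its brake, had the smallest p and the highest mean TPM (68.9, against 67.5 for Srebf2, which it exceeded in 2 of 6 libraries). Its CPM was 73.9, 95.4 and 90.8 in the females and 106, 116 and 151 in the males. All males exceeded all females, and male 3 was highest (log2 fold change 0.52 ± 0.16, adjusted p = 0.137). Insig2, the isoform less tied to SREBP, had a log2 fold change of 0.22 ± 0.13 with overlap and turned negative with the length correction. Srebf2, which encodes the SREBP most concerned with cholesterol, was at 0.25 ± 0.11 without overlap (adjusted p = 0.261). Srebf1, more concerned with fatty acids, was at -0.06 ± 0.13 and Scap at 0.08 ± 0.10, both with overlap, and Srebf1 turned positive with the length correction and without female 1, male 2 or male 3.

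Transport and storage genes were mixed, with 3 of 4 above 0 (median 0.21) and 0 of 4 called by edgeR or DESeq2, 1 having an unadjusted p under 0.05. Npc1, the membrane protein that exports sterol from lysosomes, had 121, 119 and 101 CPM in the females and 145, 128 and 135 CPM in the males. The sexes did not overlap, and the log2 fold change was 0.26 ± 0.11 (adjusted p = 0.238). Its soluble partner Npc2 had 321, 359 and 296 CPM in the females and 356, 480 and 350 CPM in the males. The high value was that of male 2, and the other males lay within or near the female range (log2 fold change 0.28 ± 0.16, adjusted p = 0.352). Stard4, a cytosolic sterol carrier, was at 0.15 ± 0.15 and Soat1, which esterifies cholesterol, at -0.24 ± 0.15, both with overlap. Ch25h, whose product is an oxysterol made chiefly by activated myeloid cells, was at 8.22, 6.47 and 7.90 CPM in the females and at 4.82, 11.1 and 5.30 CPM in the males. Its extremes were both male, and the log2 fold change was -0.09 ± 0.32 (adjusted p = 0.898), positive without male 1 or male 3 and negative otherwise.

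**Figure D2:**
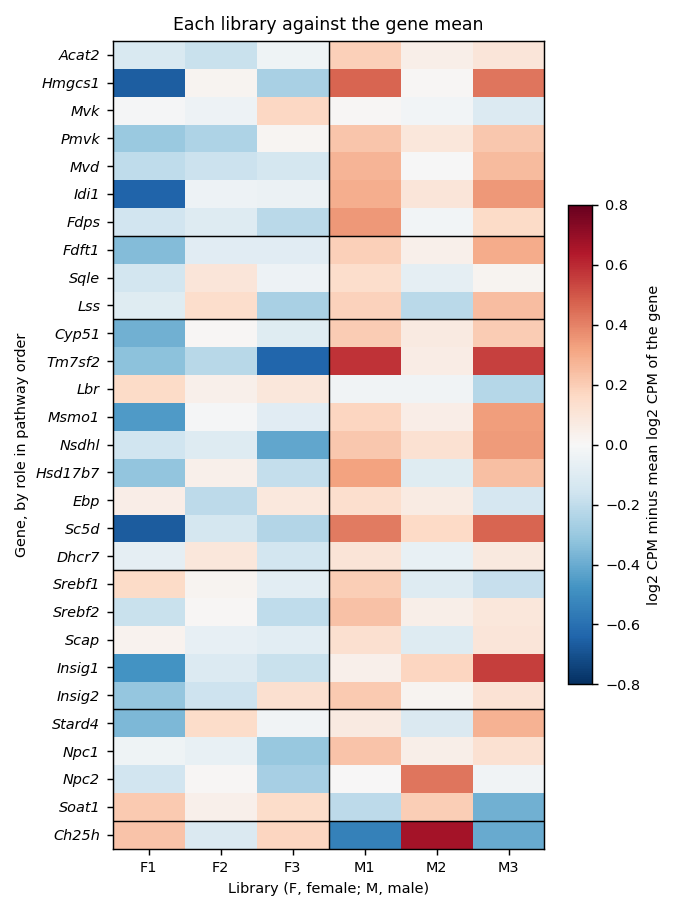
Log2 CPM of each of the 29 genes in each library minus the mean of that gene over the 6 libraries, females (F) left and males (M) right, with lines between roles. Female 1 is the lowest library for 10 of the 19 enzymes, male 2 is the lowest male for 16 of them, and Lbr, Npc2, Soat1 and Ch25h are the rows in which male 2 is the highest male.

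Within each sex the enzymes tended to be ordered alike. Female 1 was the lowest of all 6 libraries for 10 of 19 enzymes, female 2 was the highest female for 13, and male 2 was the lowest male for 16. The summed CPM of the 19 enzymes was 1305, 1677 and 1540 in females 1, 2 and 3 and 2105, 1737 and 2079 in males 1, 2 and 3. Male 2 thus lay nearer to female 2 than to the other males. For Lbr, Npc2, Soat1 and Ch25h male 2 was instead the highest male. Libraries share depth and composition, so that the order of one gene is not independent of that of another.

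Markers of cell types differed between the sexes in both directions. Of 12 markers of the myelinating Schwann cell, all 12 were higher in males and 7 were called (median log2 fold change 0.96), and their summed CPM was 20432 to 28449 in females and 46392 to 54487 in males. Of 8 macrophage markers 0 were higher in males and 0 were called (median -0.73), although 4 had an unadjusted p under 0.05, and their summed CPM was 2111 to 3448 in females and 1414 to 2316 in males. Female 1, lowest in the enzyme sum, was lowest in the Schwann sum and highest in the macrophage sum, and male 2 held the corresponding places among males. The other libraries did not keep this order. Female 2 (1677) and male 1 (2105) had the highest enzyme sums of their sex. Female 3 (28449) and male 3 (54487) had the highest Schwann sums and the lowest macrophage sums (2111 and 1414). For other cell types the median was 0.27 over 8 markers of the Schwann lineage, 0.04 over 7 of fibroblasts, -0.26 over 6 of endothelium, -1.30 over 9 of adipocytes and -1.14 over 8 of skeletal muscle, 2 of which were called higher in females. Of the Schwann lineage markers 1, S100b, was called, and it was higher in males (log2 fold change 1.11 ± 0.16, adjusted p = 0.0357). The muscle markers varied by library, with sums of 339, 457.8 and 32.5 CPM in the females and 7.03, 4.18 and 477 CPM in the males. Markers of central glia and neurons, 10 in number, summed to 2.64 to 4.45 CPM in females and 22.6 to 61.3 CPM in males, and 9 were called. Without female 3, 12 of the myelinating Schwann, 2 of the muscle and 9 of the central markers were called, while without female 1 it was 0 of each and without male 3 it was 0, 0 and 3. Of all genes tested only 0.0053% were called without female 1 and 0.037% without male 3. The fit without female 3 also called 4 macrophage, 5 adipocyte, 2 fibroblast and 2 endothelial markers, all higher in females. It called 4 Schwann lineage markers higher in males, and 13.7% of all genes tested. No marker of these lists was at 0 in every library. The part of these lists in the sterol results was not tested.

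**Figure D3:**
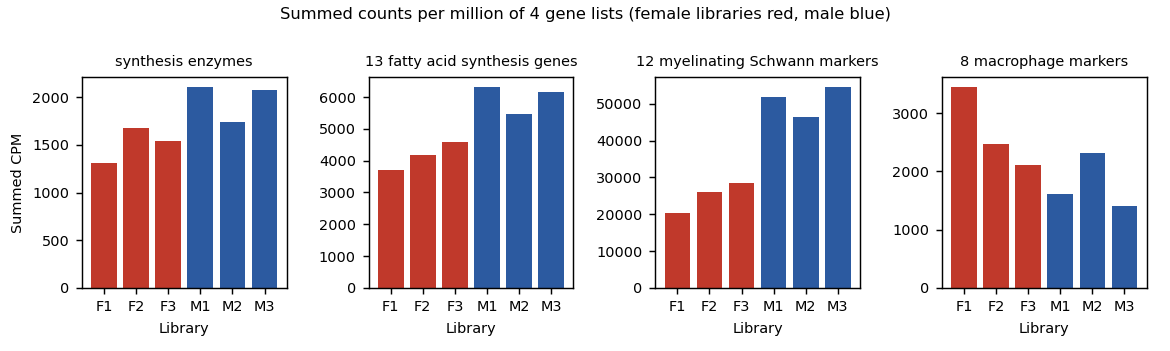
Summed CPM per library (bars from 0, females red, males blue) of the 19 enzymes, of 13 fatty acid synthesis genes and of the markers of myelinating Schwann cells and macrophages. Scd2 is the largest single part of the fatty acid sum, at a mean of 2265 CPM in females and 3617 CPM in males. Enzymes range from 1305 to 1677 in females and from 1737 to 2105 in males, with female 1 and male 2 the lowest of their sex, while for macrophage markers these same libraries are the highest of theirs. Enzyme sums are highest in female 2 and male 1 within each sex, but Schwann sums are highest and macrophage sums lowest in female 3 and male 3.

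Levels of different genes were compared in TPM, a measure corrected for transcript length. Hmgcs1 stood highest with a mean of 246 TPM over the 6 libraries, followed by Npc2 (161), Fdps (133), Msmo1 (127) and Idi1 (87.6), and the lowest were Mvd (14.8), Lss (13.9) and Ch25h (10.7), although Lss was lowest, at 4.10, when only protein-coding transcripts were summed. Hmgcs1 exceeded Npc2 in 6 of 6 libraries, and Msmo1 exceeded Idi1 in 6 of 6, but the ranges over libraries overlapped for every pair of neighbours in the order. Consecutive steps of the pathway could differ widely, as between Fdps at 133 TPM and the squalene synthase Fdft1 at 48.2 TPM, or between Sqle at 56.0 TPM and Lss at 13.9 TPM. By summed TPM the mevalonate stretch came to 503 ± 92.6 in females and 652 ± 87.8 in males, the squalene and lanosterol stretch to 113 ± 16.6 and 123 ± 11.3, and the stretch after lanosterol to 384 ± 54.7 and 440 ± 39.7 (SD, n = 3 per sex).

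**Figure D4:**
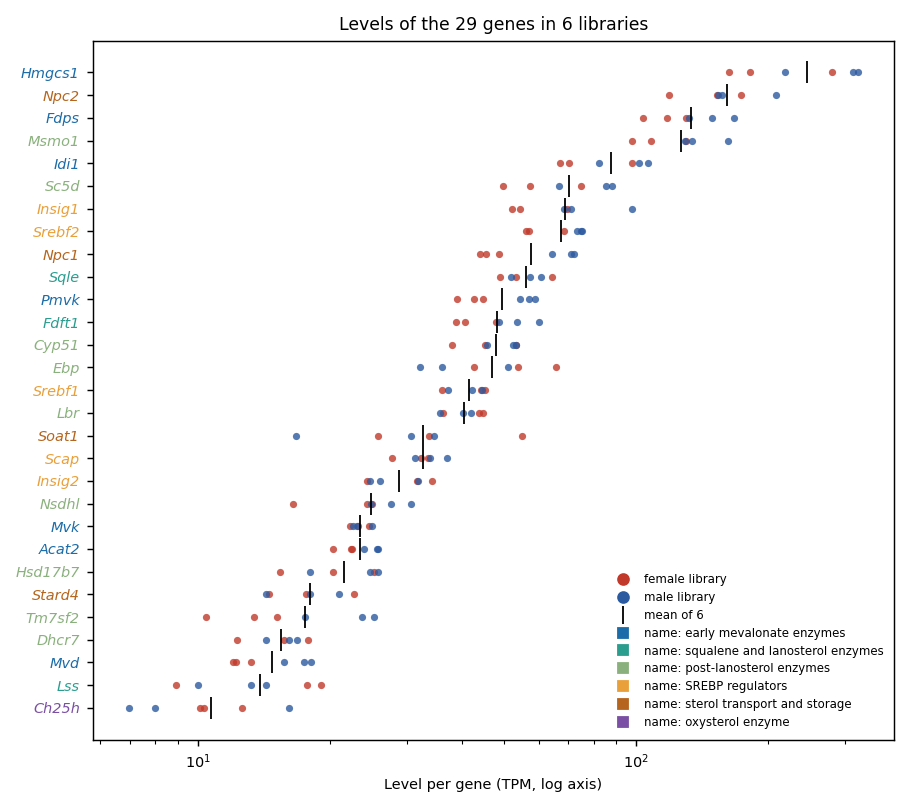
Level of each of the 29 genes in TPM (log axis) in the 3 female (red) and 3 male (blue) libraries, with the mean of the 6 as a tick, ordered by mean and with names coloured by role. Summed over all transcripts, Hmgcs1 is highest at a mean of 246 TPM and Ch25h lowest at 10.7 TPM, and points of neighbouring genes overlap all the way down.

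The sexes were also set side by side per length. Mean TPM was higher in males for 21 of 29 genes, against 43.0% of all genes tested. All males lay above all females in TPM for 8 genes, Tm7sf2, Npc1, Mvd, Pmvk, Fdft1, Fdps, Srebf2 and Acat2, against 13.4% of all genes, and the reverse held for 0, against 7.62%. The sign in TPM was opposite to that of the fitted counts for 5 genes, Mvk, Lss, Ebp, Insig2 and Stard4. For Sc5d the fold between means was 1.32 in TPM and 1.61 in CPM. For Npc1 it was 1.50 in TPM and 1.20 in CPM, with 44.0, 48.6 and 45.4 TPM in the females and 64.3, 72.2 and 70.9 TPM in the males. The transcript Npc1-206, annotated as a retained intron, averaged 22.7 TPM in females and 53.6 TPM in males. The protein-coding Npc1-201 went the other way, at 22.6 and 15.3 TPM, with overlap between the sexes. When the fit was corrected for the mean transcript length of each gene in each library, the log2 fold change of Sc5d was 0.45 and its call was lost (adjusted p = 0.156), while that of Npc1 was 0.62 and it was called (adjusted p = 0.0567).

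These shifts came with the mix of transcripts that Salmon assigned to each gene. Sc5d was split between Sc5d-201, of 4787 bases, and Sc5d-202, of 1677 bases, both protein coding. The longer one held 43.3%, 47.4% and 51.9% of the gene's TPM in the females and 56.5%, 56.3% and 58.2% in the males. The male share was above the female share throughout. In TPM the longer transcript was at 28.7 in females and 45.6 in males on average, and the shorter one at 31.6 and 34.3. Tm7sf2 was led by its protein-coding transcript Tm7sf2-201, with 55.0%, 58.8% and 61.9% in the females and 73.0%, 75.7% and 72.1% in the males, again without overlap. Over the whole set 48 transcripts held 10% or more of their gene on average, and for 37 of them the shares of the sexes overlapped. The share was higher in all males for 9 of the 48, against 9.14% of such transcripts over all genes tested, and higher in all females for 2, against 6.46%. For 13 genes a single transcript held 90% or more.

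A further group of genes was carried in part by transcripts annotated as noncoding, and these shares differed widely between libraries of 1 sex. The retained-intron transcript Npc1-206 held 30.1%, 42.3% and 75.4% of Npc1 in the females and 65.1%, 88.3% and 77.7% in the males. Lss-204, also a retained intron, held 23.7%, 28.1% and 49.9% of Lss in the females and 52.7%, 65.2% and 62.7% in the males, and Lbr-203 held 19.0%, 22.5% and 52.5% of Lbr against 41.5%, 73.3% and 55.7%. In each of these the lowest library was female 1 and the highest was male 2. Msmo1-206, a processed transcript, ran the same way, from 0% in female 1 to 51.2% in male 2. The retained-intron transcript Ebp-204 ran the other way, with 53.9%, 46.5% and 29.3% of Ebp in the females and 30.1%, 0% and 0% in the males. Over all genes the share of TPM in retained-intron transcripts was 3.46% to 4.84% in females and 3.89% to 4.63% in males, and it did not follow this order. These shares are estimates from reads that fit several transcripts. Restricted to protein-coding transcripts, mean TPM was 19.0 for Npc1 instead of 57.5, 4.10 for Lss instead of 13.9, 22.8 for Lbr instead of 40.5, 26.4 for Ebp instead of 46.9 and 87.8 for Msmo1 instead of 127. By sex, the protein-coding Lss-201 averaged 5.05 TPM in females and 2.33 TPM in males. For Lbr-201 these values were 27.6 and 15.4, for Msmo1-201 87.1 and 85.2, and for Ebp-201 24.1 and 28.6.

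**Figure D5:**
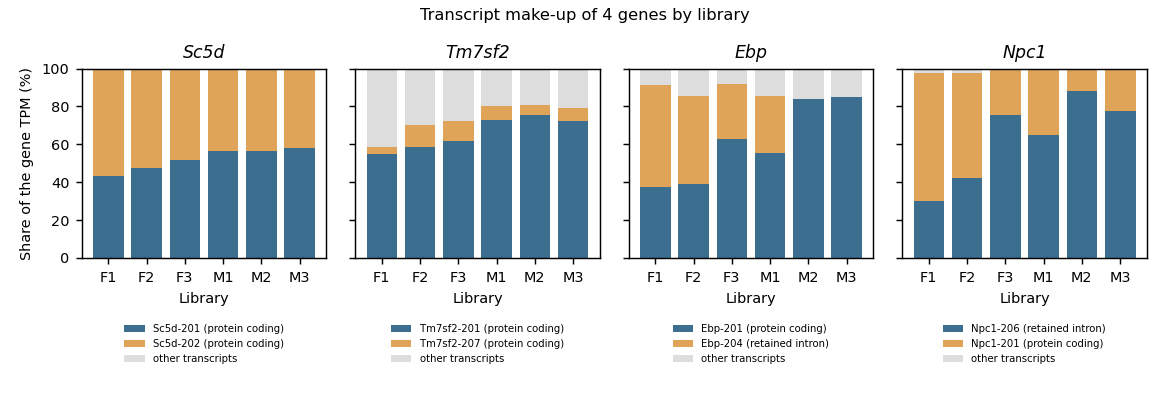
Share of gene TPM (%) held by the 2 leading transcripts of Sc5d, Tm7sf2, Ebp and Npc1 in each library (stacked bars, grey for all other transcripts). Sc5d-201 and Tm7sf2-201 hold more in every male than in any female, while Npc1-206 spans 30.1% to 88.3% and Ebp-204 spans 0% to 53.9% with overlap between the sexes.

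Neighbouring pathways were examined through lists of related genes. Of 12 other regulators of sterol synthesis 0 were called by edgeR, DESeq2 or limma-voom (1 at an unadjusted p under 0.05, median 0.06), and the smallest p-values were those of Mylip, a ubiquitin ligase induced by oxysterol receptors (0.26 ± 0.09, adjusted p = 0.179), and Erlin1, an endoplasmic reticulum protein (-0.20 ± 0.09, adjusted p = 0.256). Of 17 other genes of transport and storage 0 were called by edgeR or limma-voom (4 at an unadjusted p under 0.05, median 0.01). DESeq2 called 3, of which 2 were higher in males and 1 in females. Over all genes tested DESeq2 called 13.3%, against 5.30% by edgeR. Osbpl1a, an oxysterol-binding protein of endosomes, was at 0.46 ± 0.12 (adjusted p = 0.104). Lipa, the lysosomal lipase that frees cholesterol from its esters, was at -0.35 ± 0.10 (adjusted p = 0.122), with every female above every male.

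Among genes that convert cholesterol further, 6 of 8 were tested. DESeq2 called 3, all higher in males, and edgeR called 1. This was Cyp39a1, an oxysterol hydroxylase, with 29.4, 41.4 and 33.7 CPM in the females and 72.7, 53.6 and 77.7 CPM in the males. The sexes were well apart (log2 fold change 0.97 ± 0.18, adjusted p = 0.0474). Of 12 genes that use mevalonate products or related intermediates otherwise, 2 were called by edgeR (median 0.05). DESeq2 called 3, 1 of them higher in females. Fntb, the beta subunit of the farnesyltransferase that attaches farnesyl groups to proteins, stood at 40.3, 47.3 and 49.6 CPM in the females and 69.7, 63.0 and 82.5 CPM in the males. All males lay above all females (log2 fold change 0.65 ± 0.13, adjusted p = 0.0585).

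Fatty acid synthesis, which SREBP also controls, resembled the sterol enzymes in its median. Of 13 genes 10 were above 0 (median 0.31), and 2 were called by edgeR and 6 by DESeq2, all higher in males. Elovl1, which elongates very long chain fatty acids, had 227, 233 and 251 CPM in the females and 342, 325 and 339 CPM in the males (log2 fold change 0.50 ± 0.10, adjusted p = 0.0610). Fads1, a fatty acid desaturase, had 255, 280 and 338 CPM in the females and 424, 418 and 419 CPM in the males (0.53 ± 0.13, adjusted p = 0.0924). In both genes the males lay closely together and above all females. The 13 genes summed to 3696 to 4602 CPM in females and 5478 to 6309 CPM in males. The largest single part was the desaturase gene Scd2, named after its values were seen, at a mean of 2265 CPM in females and 3617 CPM in males. It was not called by edgeR (0.68 ± 0.20, adjusted p = 0.126) but was called by DESeq2 and limma-voom. Acly (-0.24), Acacb (-0.23) and Acaca (-0.01) were below 0, so the sum does not stand for every gene of the list. Without female 3 the called genes named here from these lists were also called, with adjusted p-values of 0.0582 for Cyp39a1, 0.0511 for Fntb, 0.0499 for Elovl1 and 0.0439 for Fads1. Over all 5 lists 5 genes were called, and the number was 0 without female 1 or male 3, 1 without male 1, 2 without female 2 and 10 without female 3. Of all genes tested 5.30% were called, 3.38% without male 1, 1.71% without female 2 and 13.7% without female 3.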

How the data were processed

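Total RNA from the proximal nerve stumps of 6 libraries (3 per sex, 2 mice each) was sequenced by the authors from stranded poly-A libraries. The submitters' processing notes name Trimmomatic 0.39, Salmon 1.5.2 and MultiQC 1.9. The authors deposited Salmon's estimated counts per transcript, raw values that can be fractions. TPM values, also deposited by the authors, are corrected for effective length. Salmon divides reads that fit several transcripts by a model, so that close copies and isoforms can exchange counts.

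Estimated counts were summed per gene symbol and rounded. In R 4.3.3 with edgeR 4.0.16, genes were filtered with filterByExpr, normalised by TMM and tested with the quasi-likelihood test with sex as the only term. P-values were adjusted by Benjamini-Hochberg. Alternatives used DESeq2 1.42.0 and voom in limma 3.58.1, other scalings and filters, an offset for effective length, a replicate block and each library left out. The script was tested on simulated counts. Gene coordinates came from GENCODE M39 on GRCm39, promoters from RefSeq. The 29 genes and all lists were chosen with earlier results of these data known. Per-library values are given for called genes and for the smallest p and highest TPM of each role, and of each list for called genes or, with none called, the smallest p-values are named. Of the called genes in the related lists, 1 is not reported here.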

Additional observations from a re-analysis of the deposited data

How the results depend on the processing

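The median of the 29 genes kept its direction throughout, and 23 genes kept their sign in all 14 alternatives fitted. Counts of calls moved. Over all genes 975 were called in the fit reported, 2440 by DESeq2, 1614 with no filter, 279 at an adjusted p under 0.05 and 1 to 2609 with 1 library left out (1 without female 1, 7 without male 3, 2609 without female 3). As shares of all genes tested, calls made up 5.30% in the fit reported, 13.3% by DESeq2 and 13.7% without female 3. Of the 29 genes 2 were called, 7 by DESeq2, 4 with no filter, 1 under library size alone, 0 at an adjusted p under 0.05 and 0 to 4 with 1 library left out. Of the genes in the 5 related lists 5 were called, 15 by DESeq2, 1 at an adjusted p under 0.05 and 0 to 10 with 1 library left out. Female and male libraries of the same number did not deviate together (r = -0.04, -0.30 and -0.30). With the replicate block 56 genes were called over all, 0 of the 29 (8 at an unadjusted p under 0.05) and 0 of the related lists. The cause of these moves was not tested, beyond the smaller number of libraries or the stricter threshold. The lowest count of the 29 genes in a library was 272.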
